A study of Ovis aries with 57 samples.

Results

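The 10 genes described here are mainly transcribed in T cells, natural killer (NK) cells and other leukocytes. They are CD3E, CD3D, CD2 and CD8A of the T cell surface, GZMA, GZMB and PRF1 of the cytotoxic granule, the cytokine receptor chain IL2RB, the chemokine CCL5 and the pan-leukocyte phosphatase PTPRC (CD45). They were chosen by symbol, with no measured value in the rule, as a sign of lymphocytes lying within the epithelium of the sheep uterus. Each symbol matched 1 feature, so the list covers 10 of the 25174 features of the tables. Values are RPKM, reads per kilobase of exon and scaled to mapped reads, so they are per length. A comparison between genes also rests on the gene models and on amplification of the RNA, whose part was not tested.

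Intraepithelial lymphocytes sit between the epithelial cells of mucosal surfaces such as the gut and the uterus. CD3E and CD3D are signalling chains of the T cell receptor complex, CD2 is an adhesion receptor of T and NK cells, and CD8A is the CD8 co-receptor of cytotoxic T cells. Cytotoxic lymphocytes kill through perforin (PRF1), which opens the target cell membrane, and granzymes (GZMA and GZMB), the proteases that enter through it. IL2RB is the receptor chain shared by interleukin 2 and interleukin 15, CCL5 is a chemokine that cytotoxic lymphocytes secrete, and PTPRC is found on nearly all nucleated blood-derived cells. In ruminants, gamma delta T cells are a large T cell population, and the sheep uterine epithelium is known to hold granulated lymphocytes of that kind.

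RNA was sequenced from pregnant sheep, with no other treatment or genotype named and with the age of the ewes not given. The luminal epithelium (LE), which lines the uterine cavity, and the glandular epithelium (GE) were taken by laser from frozen, stained pieces of uterus. Each was sampled at 5 stages of pregnancy, day 10, day 12, day 14, day 16 and day 20, and every stage had 4 LE and 4 GE libraries, so that there were 20 of each. The conceptus, the embryo with its membranes, was taken whole on day 12 (n = 5) and on days 14, 16 and 20 (n = 4 each). LE and GE RNA was amplified before sequencing, as was that of day 12 conceptuses, while later conceptus RNA was depleted of ribosomal RNA and not amplified. All animals were pregnant, so no comparison with a non-pregnant uterus could be made. LE and GE of an animal came from the same slide, but the labels tie no LE library to a GE library, and the libraries were tested as separate samples. P-values therefore measure the spread between these libraries.

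Depth was 8.04 to 26.0 M mapped reads per library in LE, 7.86 to 22.3 M in GE and 14.6 to 27.4 M in the conceptus. Exon reads made up 1.93 to 7.59 M of these in LE and 1.76 to 6.37 M in GE. The epithelial marker EPCAM was present in every LE library (42.1 to 347 RPKM) and every GE library (105 to 298 RPKM). Fewer genes reached 1 RPKM on day 14 than on other days. Their number was 4528 to 5997 in LE on day 14 and 6247 to 8741 in LE on the remaining days, and in GE it was 6539 to 7916 and 7152 to 9161. Sample numbers that begin with B occur on day 14 alone, so what that letter stands for cannot be told apart from the day. No library pair of a group shared more than 4.52% of its values, so each was counted as a sample.

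GZMA had the highest median RPKM of the genes in both epithelia. Over the 20 GE libraries it ran from 17.8 to 91.4 RPKM with a median of 53.2, and over the 20 LE libraries from 0 to 19.9 with a median of 8.59. Only the highest LE library was above the lowest GE library. In bulk tissue of this kind, fewer cells of a type and less RNA per cell cannot be told apart.

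The other granule genes were far lower. PRF1 had a median of 0.965 RPKM in GE, with a highest library at 2.44, and a median of 0.075 in LE. Its highest LE library was number 17 of day 20, at 2.45. GZMB had a median of 0.185 RPKM in GE and 0.05 in LE, and no GE library was above 1.01. RPKM divides by the length of the gene model, 4434 bases of exon for GZMB and 780 for GZMA, and whether the whole GZMB model is transcribed was not tested. The GE to LE ratio of mean RPKM was 6.60 for GZMA, 4.11 for PRF1 and 0.655 for GZMB, the last set by 2 LE libraries of day 20 described further on.

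Of the T cell surface genes, CD3E had the highest median RPKM. Its values in GE ran from 0.42 to 35.6 RPKM with a median of 19.9, and in LE from 0 to 12.2 with a median of 2.13. CD3E was above 2 RPKM in all GE libraries but number 04 of day 10, the one at 0.42. CD2 was lower and closer between the tissues, from 0.09 to 7.22 RPKM in GE (median 2.14) and from 0 to 5.55 in LE (median 0.85). CD3D and CD8A were near the limit of detection. CD3D was at 0 in 8 of 20 GE libraries and in 13 of 20 LE libraries, and CD8A in 8 of 20 and 16 of 20. In all, 100 CD8A reads were counted in GE and 10 in LE, so the level of CD8A in LE was not measurable at this depth.

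PTPRC was listed above 0 in every LE and GE library, from 6.64 to 36.1 RPKM in GE (median 11.6) and from 0.25 to 8.86 in LE (median 1.94). IL2RB ran from 2.24 to 45.7 RPKM in GE (median 8.93) and from 0 to 15.3 in LE (median 0.76). CCL5 ran from 1.53 to 53.2 RPKM in GE (median 8.47) and from 0 to 3.51 in LE (median 0.655), where 7 of 20 libraries were at 0. By median RPKM, the order in GE was GZMA, CD3E, PTPRC, IL2RB, CCL5, CD2, PRF1, with the last 3 genes of the list below these. The ranges of PTPRC, IL2RB and CCL5 in GE overlapped widely, so their order among themselves does not stand above the spread between libraries.

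**Figure D1:**
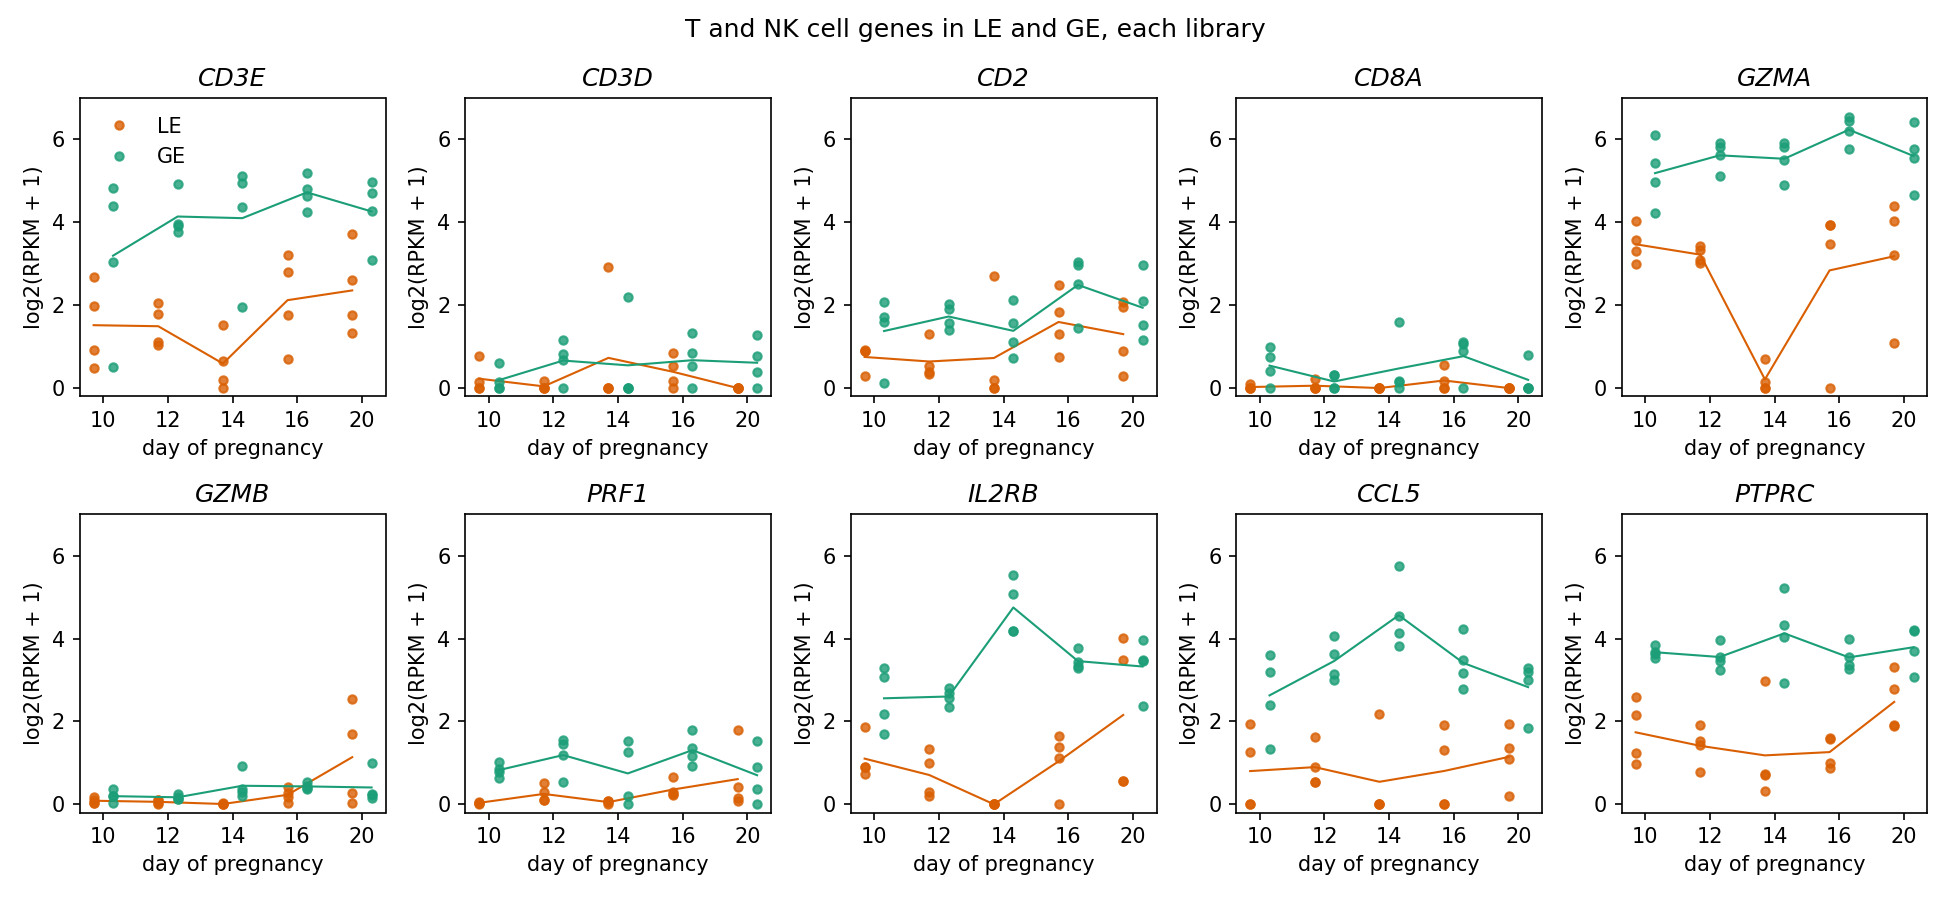
RPKM of each of the 10 genes as log2(RPKM + 1) (vertical axis) by day of pregnancy (horizontal axis), with a point per library, LE in orange and GE in green, and lines through the means of each day. GE points lie above LE points for GZMA, CD3E, PTPRC, IL2RB and CCL5 on most days, GZMA in LE drops to near 0 on day 14, and IL2RB in GE peaks on day 14.

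LE and GE were compared on each day and over the mean of the days with limma on log2(RPKM + 1), with Benjamini-Hochberg adjustment over the 11131 genes tested and a threshold of 0.05 on the adjusted p. GZMB did not pass the filter, so 9 of the 10 genes were tested. Over the mean of the days, 8 of the 9 were lower in LE and none was higher, where 42.6% of all genes tested were lower in LE and 12.7% higher. The median difference, LE minus GE, was -2.13 for the 9 genes and -0.37 for all genes on the log2 scale. A shift of most genes towards GE was therefore part of the background, and rescaling the libraries reduced it. Over the mean of the days, the median of all genes was -0.06 with TMM and -0.11 with RLE or upper quartile scaling. On day 10 it was -0.45 as deposited and -0.01 with TMM, and on day 14 it was -0.46 and -0.15.

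GZMA differed most, at -3.05 ± 0.27 on the log2 scale (SE, limma adjusted p = 4.35e-12). The difference was -2.54 ± 0.25 for CCL5, -2.47 ± 0.32 for CD3E, -2.34 ± 0.25 for IL2RB and -2.13 ± 0.21 for PTPRC, with limma adjusted p of 3.17e-08 or less for each. These 5 genes were lower in LE under each of the 10 other settings tried and without any single library. PRF1, the pore former, was lower by a smaller difference of -0.69 ± 0.15 (adjusted p = 0.000171). CD8A at -0.38 ± 0.12 passed the test (adjusted p = 0.00711), on the few reads given above. CD2 at -0.78 ± 0.24 also passed (adjusted p = 0.00523), but its call was lost in 5 of 10 other settings, each a rescaling of the libraries or a count model, with an adjusted p of up to 0.356. CD3D at -0.26 ± 0.20 did not pass (adjusted p = 0.276).

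By day, the number of the 9 genes lower in LE was 3 on day 10, where 11.6% of all genes were lower, 5 on day 12 (9.17%), 5 on day 14 (27.1%), 6 on day 16 (15.7%) and 2 on day 20 (6.44%). None was higher on any day, where 2.65, 3.03, 8.75, 6.76 and 4.29% of all genes were higher on days 10 to 20. GZMA and CCL5 passed on all 5 days, PTPRC on 4, CD3E and IL2RB on 3 and PRF1 on day 16 alone. On day 12, GZMA was 8.38 ± 1.23 RPKM in LE and 49.1 ± 11.1 in GE (SD, n = 4 each), with 7.15 to 9.72 in LE and 33.9 to 58.9 in GE. The groups did not overlap, and the difference of -2.40 ± 0.60 on the log2 scale had an adjusted p of 0.00564 (limma). On day 16, LE number 25 was at 0 and the other LE libraries at 10.2 to 14.3 RPKM, all below the 53.3 to 91.4 of GE (-3.40 ± 0.60, limma adjusted p = 5.35e-05).

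**Figure D2:**
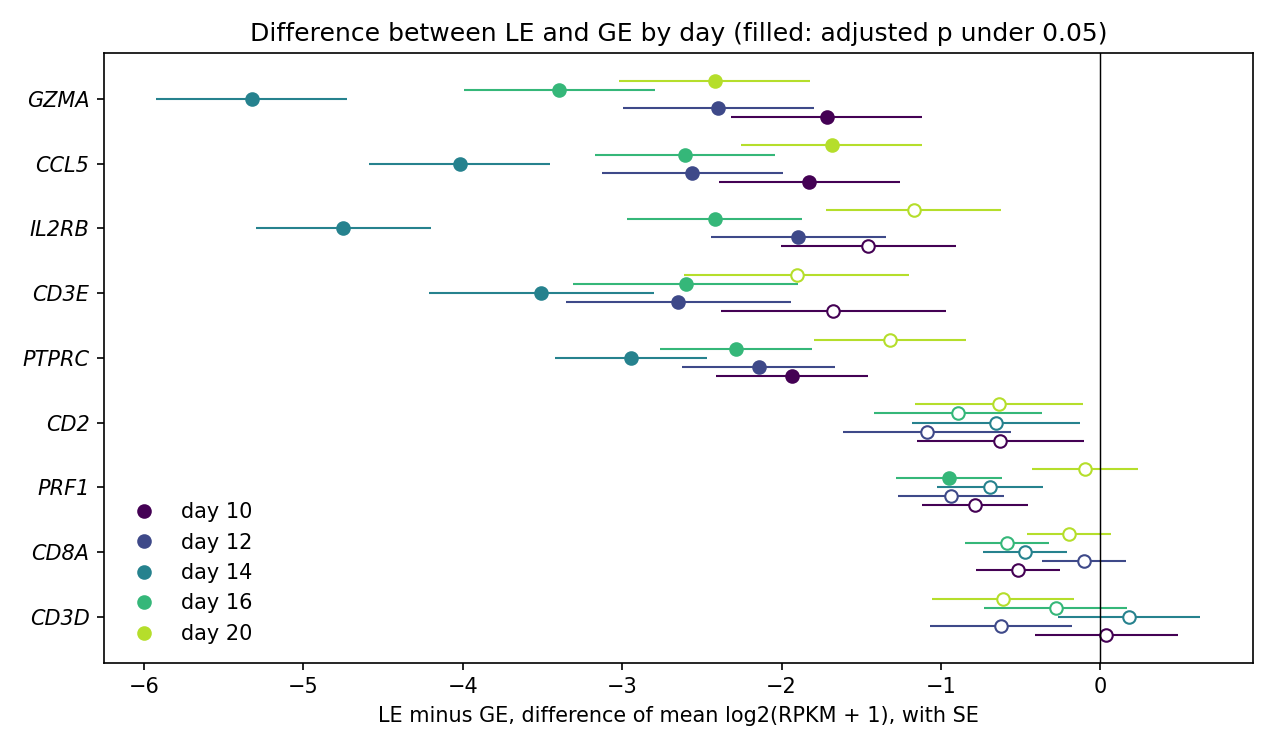
Difference between LE and GE in mean log2(RPKM + 1) (horizontal axis, LE minus GE, bars are SE) for the 9 genes tested, with a point per day, filled where the limma adjusted p was under 0.05. Points of GZMA, CCL5, IL2RB, CD3E and PTPRC lie left of 0 on all days and farthest left on day 14, where GZMA is at -5.33, while CD3D lies around 0.

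The calls of single days rested on less than those of the mean. On day 10, the count was 0 to 1 with RLE, TMM or upper quartile scaling and with edgeR or DESeq2 on reads recovered from the RPKM, and it ran from 1 to 5 as single libraries were left out. GZMA on day 10 (-1.72 ± 0.60, limma adjusted p = 0.0477) lost its call under 7 of 8 other settings and without any of 7 of the 8 libraries (all but GE number 04, adjusted p up to 0.168), and CCL5 without LE number 01 or 05 or GE number 02 or 08. On day 12, the call of IL2RB was lost with TMM scaling and without LE number 13 or 15 (adjusted p up to 0.0603), and edgeR on recovered reads called 1 gene, PTPRC. On day 16, edgeR called 2 genes, and PRF1 (-0.95 ± 0.33, adjusted p = 0.0355) lost its call under 7 of 8 other settings and without any of LE numbers 25, 29 and 31 and GE numbers 28, 30 and 32 (adjusted p up to 0.121). On day 20, CCL5 (-1.68 ± 0.57, adjusted p = 0.0489) lost its call under 8 of 9 other settings and without any of LE numbers 17, 21 and 23 and GE numbers 018, 020 and 024 (adjusted p up to 0.187). GZMA (-2.42 ± 0.60, adjusted p = 0.00602) lost its call under 4 of 9 other settings and without LE number 21, when its adjusted p was 0.0663.

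Day 14 gave the widest gap between the tissues. GZMA in LE was at 0.62, 0, 0.10 and 0 RPKM (7, 0, 1 and 0 reads) and in GE at 59.5, 55.3, 44.3 and 28.8 RPKM, a difference of -5.33 ± 0.60 on the log2 scale (limma adjusted p = 9.6e-09). The groups were far apart. IL2RB was at 0 in all 4 LE libraries and at 17.2, 45.7, 32.8 and 17.3 RPKM in GE (limma adjusted p = 1.77e-08). With 3 reads per library taken as the limit that a count of 0 allows, a mean of 0.149 RPKM, IL2RB was at least 189-fold lower in LE. CD3E, PTPRC and CCL5 were also lower in LE on that day, with differences of -3.51 ± 0.71, -2.95 ± 0.48 and -4.02 ± 0.57 on the log2 scale (limma adjusted p of 0.000162, 7.14e-06 and 7.24e-07). LE number B02 held the highest PTPRC (6.85 RPKM) and the only CCL5 (3.51 RPKM) of the LE libraries of the day. By summed RPKM, the second list of T and NK cell genes described next was not lower in LE than on other days. Its sum was 74.9 to 113 against 16.2 to 86.5 on the other days, and CST7 alone made up 21.9 to 69.8 of it. In GE on day 14 the sum was 131 to 278, above every LE library of the day. The fewer genes detected in LE on day 14 went along with the low LE values of the genes named above. Their part in the result was not tested.

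A second list of T and NK cell genes, not counting the 10, held 44 symbols, of which 39 were in the tables and 21 passed the filter. Of these, 16 of 21 were lower in LE over the mean of the days and none was higher, where 42.6% of all genes were lower and 12.7% higher, with a median of -0.93 against -0.37 for all genes. By day, 5, 6, 9, 11 and 4 of the 21 were lower in LE on days 10, 12, 14, 16 and 20, where 11.6, 9.17, 27.1, 15.7 and 6.44% of all genes were. CTSW, a protease of cytotoxic lymphocytes, differed by -3.05 ± 0.28 on the log2 scale (limma adjusted p = 1.26e-11). The adhesion receptor CD96 differed by -2.22 ± 0.23 (adjusted p = 3.71e-10), and the T cell receptor chain CD3G by -1.78 ± 0.19 (adjusted p = 4.22e-10). CST7, an inhibitor of granule proteases, stood outside this pattern, with group means of 5.39 to 46.1 RPKM in LE and 12.8 to 38.6 in GE.

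The constant regions of the T cell receptor were read unequally. TRDC, of the delta chain, had group means of 17.5 to 24.8 RPKM in GE over the 5 days. TRAC, of the alpha chain, had group means of 0.58 to 2.59 RPKM in GE, and the highest TRAC library of GE, at 4.32, was below the lowest TRDC library, at 5.56. In LE, the group means were 2.62 to 8.00 RPKM for TRDC and 0.17 to 0.60 for TRAC. TRDC was lower in LE than in GE (-2.39 ± 0.32 over the mean of the days, limma adjusted p = 6.67e-08), and so was TRAC (-0.90 ± 0.15, adjusted p = 7.03e-06). The gene model of TRAC has 4897 bases of exon and that of TRDC 532, and whether the whole TRAC model is transcribed was not tested. CD4, the co-receptor of helper T cells, had group means of 0.15 RPKM or less in both epithelia.

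**Figure D3:**
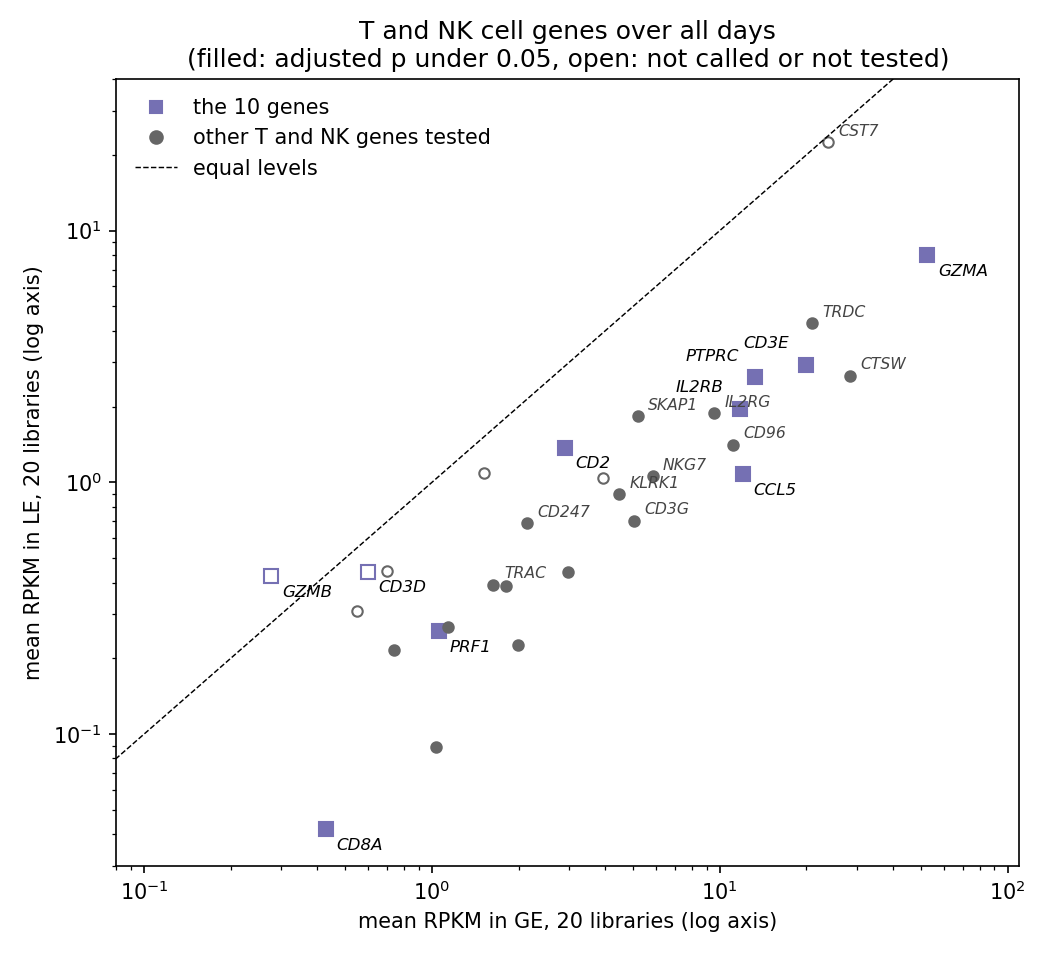
Mean RPKM over 20 GE libraries (horizontal axis) against mean RPKM over 20 LE libraries (vertical axis), both log axes, for the 10 genes (squares) and the other T and NK cell genes tested (circles), filled where LE and GE differed over the mean of the days. All points but GZMB lie below the dashed line of equal levels, with GZMA farthest right and CST7 close to the line.

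Genes of leukocytes in general, another list, were lower in LE over the mean of the days for 12 of 16 tested and higher for none, where 42.6% of all genes were lower and 12.7% higher. For stromal, macrophage, vessel and epithelial markers, the counts went both ways and are to be read against the same shares. Of 12 stromal genes, 4 were higher and 3 lower in LE, of 8 macrophage and dendritic cell genes 1 was higher and 2 lower, and of 5 vessel genes 1 was higher and 2 lower. The summed RPKM of the 12 stromal genes ranged over 21.8 to 649 in LE and over 97.0 to 417 in GE. The B cell gene MS4A1 was at or near 0 throughout, at most 0.09 RPKM in LE and 0.07 in GE. The summed RPKM of 9 B and plasma cell genes was at most 2.38 in LE and at most 5.24 in GE apart from day 14, when CD79A reached 52.7 in GE number B07. CD79A was lower in LE over the mean of the days (-1.60 on the log2 scale, limma adjusted p = 1.43e-06), and no other gene of that list was called. Of 9 epithelial genes, 1 was higher and 2 lower in LE. The part of these other cells in the LE and GE difference was not tested.

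Change over days was tested within each tissue. In LE, 6 of the 10 genes passed the filter, without GZMB, PRF1, CD3D and CD8A. GZMA was the 1 gene of the 6 that changed with day (limma over all days, adjusted p = 0.00952), where 23.8% of all 9203 genes tested did. From day 12 to day 14 it fell from 8.38 ± 1.23 to 0.18 ± 0.30 RPKM (SD, n = 4 each). No library of day 14 reached 1 RPKM and none of day 12 was below 7.15. The change was -3.01 ± 0.73 on the log2 scale (adjusted p = 0.0102), where 9.76% of all genes fell, and it passed under each of the 7 other settings tried and without any single library. The authors' deposited table gives a fold change of -24.15 with an FDR of 0.0098 for the same step.

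From day 14 to day 16, GZMA in LE rose again, to 0 RPKM in number 25 and 14.3, 14.3 and 10.2 in the others (2.63 ± 0.73 on the log2 scale, limma adjusted p = 0.022), where 11% of all genes rose. Number 25 lay with the day 14 libraries, so the groups overlapped. The call was lost with no filter on low genes and without number 27, 29 or 31 of day 16, when the adjusted p reached 0.0715. The authors' deposited table gives a fold change of 27.88 with an FDR of 0.00944. CD3E did not pass (1.53 ± 0.62, adjusted p = 0.105), with 1.87, 0.15, 0.56 and 0 RPKM on day 14 and 6.01, 0.62, 2.39 and 8.30 on day 16. CD2, PTPRC, IL2RB and CCL5 did not pass in either step.

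In the other steps in LE, limma called none of the 6 genes (0.565% of all genes from day 10 to day 12, 0.261% from day 16 to day 20 and 4.32% from day 10 to day 20). At an unadjusted p under 0.05 there was 1 gene, PTPRC from day 16 to day 20 (1.21 ± 0.55, adjusted p = 0.519). On recovered reads edgeR called none in these 3 steps, and DESeq2 called none but 1 gene from day 10 to day 20. PTPRC in LE was at 0.82, 1.00, 2.02 and 1.99 RPKM on day 16 and at 2.77, 2.72, 5.83 and 8.86 on day 20, with no overlap. Of the 9 tested genes of the second T and NK cell list, 1 rose from day 12 to day 14, and this was CST7 (1.67 ± 0.47, adjusted p = 0.0243), the opposite direction to GZMA, where 3.39% of all genes rose. The call of CST7 was lost without LE number 11 or 13 of day 12 or B04 of day 14 (adjusted p up to 0.0877).

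In GE, 9 of the 10 genes were tested, and 2 changed with day where 23.5% of all 10049 genes did. These were IL2RB (limma adjusted p = 0.00223) and CCL5 (adjusted p = 0.0389). IL2RB was at 5.42, 4.08, 6.03 and 4.92 RPKM on day 12 and at 17.2, 45.7, 32.8 and 17.3 on day 14. The groups did not overlap, and IL2RB rose from 5.11 ± 0.82 to 28.2 ± 13.7 RPKM (SD, n = 4). The change was 2.15 ± 0.41 on the log2 scale (limma adjusted p = 0.00149), where 6.29% of all genes rose. It passed under each of the 7 other settings and without any single library. The authors' deposited table gives a 5.93-fold rise with an FDR of 3.74e-05.

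Markers of other cells were also high in GE on day 14. The summed RPKM of 7 vessel genes was 8.26 to 15.0 on day 12, 29.9 to 127 on day 14 and 12.6 to 27.7 on day 16, without overlap between day 14 and either neighbour. That of 12 stromal genes was 143 to 211, 186 to 417 and 107 to 154 on the same days, and that of 15 macrophage and dendritic cell genes 10.8 to 22.4, 41.2 to 81.8 and 36.4 to 112. From day 12 to day 14, 1 of 4 vessel genes tested rose, 2 of 9 stromal genes rose and 1 fell, and 1 of 6 macrophage and dendritic cell genes rose, where 6.29% of all genes rose and 9.68% fell. VWF, of the vessel lining, rose by 2.79 ± 0.40 on the log2 scale (limma adjusted p = 0.000152) and fell by 1.90 to day 16 (adjusted p = 0.00327). COL1A1, a collagen of the stroma, rose by 2.37 ± 0.70 (adjusted p = 0.025) and fell by 3.09 (adjusted p = 0.0051). LAPTM5, a lysosomal protein of leukocytes, rose by 2.11 ± 0.40 (adjusted p = 0.00157) and fell by 1.51 (adjusted p = 0.0139). SRGN, of the same leukocyte list, went the other way, at -2.05 (limma adjusted p = 0.011) and then 2.22 (adjusted p = 0.00613). CD53, also of that list, rose by 1.32 from day 14 to day 16 (limma adjusted p = 0.0274). The part of these cells in the day 14 values of IL2RB and CCL5 was not tested.

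By day 16, IL2RB in GE was at 12.7, 9.80, 8.72 and 9.08 RPKM, all below the day 14 libraries. It fell by 1.29 on the log2 scale (SE 0.41, limma adjusted p = 0.0323), where 4.89% of all genes fell. The call was lost with no filter and without any of 5 of the 8 libraries (B03, B05, 28, 30 and 32, adjusted p up to 0.0822). The authors' deposited table gives -3.19-fold with an FDR of 0.01. CCL5 was at 7.00 to 15.6 RPKM on day 12, 13.1 to 53.2 on day 14 and 5.85 to 17.7 on day 16, and neither step passed (1.10 ± 0.50, adjusted p = 0.138, and -1.15 ± 0.50, adjusted p = 0.116). Neighbouring days of CCL5 overlapped, and its change over all days was past the threshold in limma and DESeq2 but not in edgeR on recovered reads.

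GZMA, PRF1, CD3E, CD3D, CD2, CD8A and PTPRC did not pass in any step in GE. GZMA was at 28.8 to 59.5 RPKM on day 14 against 33.9 to 58.9 on day 12 (-0.08 ± 0.39, limma adjusted p = 0.911). CD2 was at 0.64 to 3.38 RPKM on day 14 and 1.73 to 7.22 on day 16 (1.11 ± 0.49, adjusted p = 0.119). In the remaining GE steps limma called none of the 9 genes, with none at an unadjusted p under 0.05 and none by edgeR or DESeq2 on recovered reads (all genes called 0.527% from day 10 to day 12, 0.308% from day 16 to day 20 and 6.43% from day 10 to day 20).

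Other T and NK cell genes in GE moved mainly at the next step. From day 14 to day 16, 5 of 20 tested rose and none fell, where 12.6% of all genes rose, with a median change of 0.85 against 0.25 for all genes. CD96 rose from 3.99 to 13.5 RPKM (means of 4 libraries; 2.15 on the log2 scale, limma adjusted p = 0.0132), and NKG7, a granule membrane protein, from 4.04 to 14.2 (2.10, adjusted p = 0.037). The NK receptor NCR3 was at 0 in all 4 GE libraries of day 14 and rose to 0.25 to 7.32 RPKM on day 16 (adjusted p = 0.0221). The calls of CD96 and NKG7 were lost in edgeR and DESeq2 on recovered reads, and that of NKG7 also with no filter and without any of 6 of the 8 libraries (B01, B07, 26, 28, 30 and 32). That of NCR3 was lost with no filter and without number 26 or 32 of day 16. The number of genes detected in GE was lower on day 14 than on day 16 (6539 to 7916 against 8186 to 9161), and its part in these values was not tested.

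Whether LE and GE changed differently was tested as the difference of the changes in 1 fit. From day 12 to day 14, IL2RB passed (-2.86 ± 0.78 on the log2 scale, LE change minus GE change, limma adjusted p = 0.0365), where 1.84% of all genes were lower in that sense. IL2RB in LE went from 1.53, 1.00, 0.22 and 0.15 RPKM to 0 in all 4 libraries, at least a 4.86-fold lower mean at the limit of 3 reads, while it rose in GE. The lowest of these day 12 libraries held 2 reads, below that limit. The LE step alone did not pass (-0.71 ± 0.61, limma adjusted p = 0.471). For GZMA the difference of the changes was -2.93 ± 0.85 with an adjusted p of 0.0513, past the threshold in 6 other settings. The IL2RB call was lost with no filter (adjusted p = 0.0553) and without any of LE numbers 09 and 11, GE numbers 10, 12, 14 and 16 and GE number B03 (adjusted p up to 0.0748). In the other steps limma called none of the 9 genes (0.35% of all genes from day 10 to day 12, 4.16% from day 14 to day 16 and 0.467% from day 16 to day 20), with GZMA and IL2RB at an unadjusted p under 0.05 from day 14 to day 16. For that step edgeR on recovered reads called 2 genes and DESeq2 3, and neither called any in the other steps.

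On day 20, 2 LE libraries, numbers 21 and 23, differed from the rest in GZMB and IL2RB. GZMB was at 0.21, 0.02, 4.83 and 2.25 RPKM in numbers 17, 19, 21 and 23, where the highest of the other LE days was 0.34. IL2RB was at 0.48, 0.47, 15.3 and 10.1 RPKM in the same libraries. Both genes were high in numbers 21 and 23 alone, on 557 and 128 reads of GZMB and 661 and 217 reads of IL2RB. GZMA did not follow, at 19.9, 8.30, 1.13 and 15.4 RPKM, and number 21 was its lowest library of the day. CD3E was highest in the same libraries, at 5.14 and 12.2 RPKM against 2.38 and 1.52.

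The same libraries held transcripts of PAG11 and PAG4, pregnancy-associated glycoproteins that ruminant trophoblast makes, looked at after the values of these libraries were seen. PAG11 was at 1.40 RPKM in number 21 and 2.59 in number 23, and at most 0.07 in the other 18 LE libraries and in GE. PAG4 was at 4.89 and 1.13 RPKM, and at most 0.03 in the other LE libraries and 0.04 in GE. Day 20 conceptuses held 18.1 to 85.8 RPKM of PAG11, together with the IL2RB described next, and at most 0.0405 RPKM of GZMB. The part of conceptus RNA in these LE values was not tested. Without numbers 21 and 23, the LE and GE comparison of day 20 called IL2RB (-2.76 on the log2 scale, limma adjusted p = 0.000598) and no other of the genes, where with them it called GZMA and CCL5 but not IL2RB.

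In the conceptus, IL2RB was the exception among the 10 genes. Its values were 0.175 to 0.573 RPKM on day 12, 0.451 to 2.18 on day 14 and 0.0347 to 0.938 on day 16. On day 20 the 4 libraries were at 268, 98.1, 256 and 429 RPKM, on 7659, 2388, 7107 and 12409 reads. Every day 20 library was far above every earlier one, and above every LE and GE library, by RPKM. LE and GE RNA was amplified and that of these conceptuses was not, and RPKM is scaled to mapped reads. Exon reads were 10.4 of 14.6 M mapped reads in conceptus number 3 of day 20. In GE number B03 of day 14 they were 4.96 of 13.6 M. The part of this in the gap to LE and GE was not tested. The gene stood at rank 158 to 603 by RPKM among the 16380 to 17053 genes above 0 in these libraries. From day 16 to day 20 it rose by 9.28 ± 0.78 on the log2 scale (edgeR quasi-likelihood on gene reads, adjusted p = 1.13e-06), the 15th largest rise of the 2516 genes that rose (18.1% of the 13918 tested). The change lay between 7.38 and 9.49 under the other settings and passed in each. The authors' deposited table gives a 435-fold rise with an FDR of 1.21e-36.

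**Figure D4:**
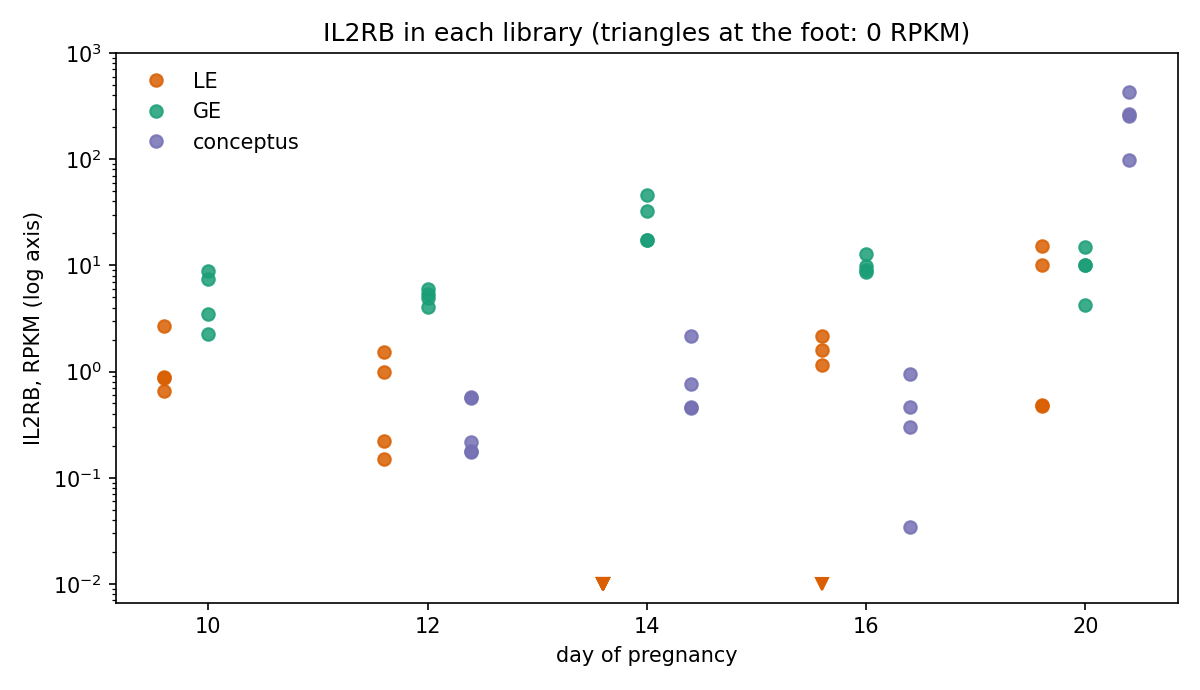
IL2RB in RPKM on a log axis (vertical) by day of pregnancy (horizontal), with a point per library of LE, GE and conceptus and triangles for libraries at 0. The 4 LE libraries of day 14 are at 0, those of GE on the same day at 17.2 to 45.7, and the 4 conceptuses of day 20 at 98.1 to 429.

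The partners of IL2RB were low in the same conceptuses. IL2RG, the common gamma chain that signals with IL2RB, was at 1.63 to 5.40 RPKM on day 20 and rose by 1.81 on the log2 scale from day 16 (edgeR adjusted p = 0.0268), a call lost without number 1, 2 or 4 of day 16 or number 3 of day 20 (adjusted p up to 0.128). IL2RA, the high-affinity chain for interleukin 2, was at 0 in 3 of 4 libraries, and IL15RA was at 0.348 to 0.685 RPKM. T cell genes were low as well, with CD3E at 0.346 to 0.539 RPKM, CD2 at 0.018 to 0.128 and PTPRC at 0.0869 to 0.178. The neighbouring genes TMPRSS6 and C1QTNF6 were at 0 to 0.13 and 3.46 to 8.39 RPKM on day 20.

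Several genes known from leukocytes rose in the conceptus at the same step. SRGN, a granule proteoglycan, reached 149 to 913 RPKM on day 20 (6.83 on the log2 scale, edgeR adjusted p = 3.2e-06), LCP1, an actin-bundling protein, 51.5 to 127 (5.81, adjusted p = 2.5e-07) and CD53, a tetraspanin of leukocytes, 18.4 to 92.8 (4.39, adjusted p = 0.000109). FASLG, the death ligand of cytotoxic lymphocytes, reached 3.76 to 10.5 RPKM (4.27, adjusted p = 0.000336). Of the general leukocyte list, 4 of 13 tested rose from day 16 to day 20 and none fell. Of the second T and NK cell list, 2 of 15 rose and 1 fell. Of all genes, 18.1% rose and 18.9% fell, and the share of the T and NK cell list that rose was not above this background. Red cell genes, which mark blood, summed to 15.3 to 33.5 RPKM on day 20 against 0.495 to 1.60 on day 16, and their part in these values was not tested.

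The other 9 genes were low in all conceptuses, and GZMA, GZMB, PRF1, CD3D, CD8A and CCL5 did not pass the filter there. The highest of these was GZMA on day 12, at 0.529 to 2.67 RPKM, and CCL5 was at 0 in every library of days 14 and 16. From day 12 to day 14, CD3E, CD2 and PTPRC fell, 3 of 4 tested, where 38% of all genes fell. PTPRC was at 0.408 to 0.988 RPKM in the 5 libraries of day 12 and at 0 to 0.04 on day 14, without overlap (-6.54 ± 0.58 on the log2 scale, edgeR adjusted p = 2.42e-08). Day 12 RNA was amplified and its gene reads include reads outside exons, so amplification and day cannot be told apart here. Limma on RPKM called none of the genes, but its filter was 1 RPKM in 4 or more libraries. CD3E reached 1 RPKM in 3 conceptus libraries and CD2 and PTPRC in 0, so limma could not test their fall. The authors' deposited table called none of these 3 genes at this step, with an FDR of 0.309 for CD3E, 1 for CD2 and 0.231 for PTPRC, and gives GZMA, not tested here, a fold change of -20.7 with an FDR of 0.0103. From day 14 to day 16, PTPRC rose (1.65 ± 0.67, edgeR adjusted p = 0.0485) where 25.6% of all genes rose, at levels of 0.0452 to 0.216 RPKM, a call lost in 4 of 4 other settings that tested it.

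Across the 20 GE libraries, CTSW was the gene most like the mean log2(RPKM + 1) of the 10 genes. Its Pearson r was 0.876 among 8551 genes, followed by HSD17B11 (0.812) and DDX3X (0.812). CTSW was at 12.4 to 78.6 RPKM in GE on day 14 and 38.3 to 43.2 on day 16. Within GE, IL2RB and CCL5 went together (r = 0.766), as did CD3E and CD2 (r = 0.642) and GZMA and CD3E (r = 0.599). Not all of the genes did so, and the lowest r of a pair was -0.547, for CD3D and PTPRC. With the mean of the 10, r was 0.116 for PTPRC and 0.279 for PRF1. For the other genes tested in GE it was 0.389 to 0.761. In LE, the genes most like the mean were ELOVL5 (0.872), SEMA4B (0.866) and PRKCI (0.858) among 7803 genes. No gene of the T and NK cell lists was among the 6 most alike in LE. GZMB and IL2RB had an r of 0.872 in LE, with libraries 21 and 23 of day 20 the highest in both. All of these are descriptions over 20 libraries that share day, depth and number of genes detected, with day 14 included.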

How the data were processed

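The authors mapped reads to the sheep genome Oar v3.1, per the submitters' processing notes. Aligner, annotation and counting rule: not given in the sources used here. Per the file headers, LE and GE values are the RPKM of the authors, and the deposited conceptus tables hold a gene read count and RPKM. Signed fold changes, used as a score, and FDR p-values came from the authors' deposited comparisons, per the file headers. Of 25197 features, 23 without identifier were left out. The plan allowed for counts in LE and GE, but the files hold RPKM, so limma was used.

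RPKM here is whole reads over exon length and mapped reads. The exon length of 18942 features and the depth of each library were worked out from them, and all low values (100%) gave whole reads to within 0.1 read. LE and GE were tested with limma-trend on log2(RPKM + 1), keeping genes that reached 1 RPKM in 4 or more libraries, all days in 1 fit per tissue and both tissues in 1 fit for LE against GE. A fold change on that scale understates the change of low genes. Conceptus gene reads were tested with the quasi-likelihood method of edgeR, scaled by TMM and filtered by its own rule. For edgeR, the value after ± is the size of the log2 change over the square root of the F statistic, not a fitted SE. All adjusted p-values are Benjamini-Hochberg values over all genes of a comparison, with a threshold of 0.05. Limits for a count of 0 are 3 reads per library and, like all read counts here, cover counting error only, since molecules were amplified and not identified.

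Other settings were a pseudocount of 0.1, no filter, RLE, upper quartile and TMM scaling, edgeR and DESeq2 on recovered reads, replicate blocks and leaving out single libraries. Day 14 left out, LE numbers 21 and 23 of day 20 left out, and edgeR on conceptus exon reads were chosen after seeing the data. The members and the gene lists were chosen with earlier results of these data known. Beyond the 10 genes, the text names, of the other T and NK, leukocyte and homing lists, genes from among the 4 per list with the smallest adjusted p past the threshold in a comparison, as well as the partners and genome neighbours of IL2RB and markers of other cells, and the 6 genes most like the mean of the members in LE and in GE. CST7, PAG11, PAG4, TRDC, TRAC and CD79A were singled out after their values were seen. Of the 10 symbols, 8 are in the RefSeq gene table given for the sheep, not GZMA and GZMB. Sequences were not used here. The scripts were tested on simulated data. The versions were Python 3.11.15, DESeq2 1.42.0, edgeR 4.0.16, limma 3.58.1 and R 4.3.3.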

Additional observations from a re-analysis of the deposited data

Results flagged for a closer look

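Of 58 groups of 4 or 5 libraries looked at, 5 held a library far from the others of its group. Chance marks about 1 in 20 groups in this way where values are normally distributed. Some libraries here were at 0 and the groups share libraries, so that rate need not hold. CD3E was at 29.1 RPKM in GE number 10 of day 12, and at 12.6 to 14.5 in the other 3 libraries. In LE number B04 of day 14, CD3D was at 6.53 RPKM and CD2 at 5.55, while the other 3 libraries were at 0 for CD3D and at 0 to 0.14 for CD2. PTPRC was at 6.85 RPKM in LE number B02 of day 14 and at 0.25 to 0.65 in the others. IL2RB was at 2.66 RPKM in LE number 07 of day 10 and at 0.65 to 0.88 in the others. The change of IL2RB from day 12 to day 14 differed between the tissues, by -2.86 on the log2 scale, LE change minus GE change.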

How the results depend on the processing

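Counts of the 10 genes past the threshold moved as follows. For LE from day 12 to 14 (1 gene), edgeR and DESeq2 on recovered reads called 2. For LE from day 14 to 16 (1), a pseudocount of 0.1 and edgeR called 2, DESeq2 3 and no filter 0, and leaving out single libraries gave 0 to 2. For LE from day 10 to 20 (0), DESeq2 called 1. For LE over all days (1), the pseudocount gave 2 and edgeR and DESeq2 3, and single libraries 1 to 2. For GE from day 12 to 14 (1), DESeq2 called 2, and for GE from day 14 to 16 (1) no filter gave 0, RLE 2 and DESeq2 3, and single libraries 0 to 1. For GE over all days (2), the pseudocount, no filter, upper quartile scaling and edgeR gave 1, and single libraries 1 to 2.

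For LE against GE, day 10 (3) gave 0 with RLE, TMM and edgeR and 1 with upper quartile scaling and DESeq2. Day 12 (5) gave 1 and day 16 (6) gave 2 with edgeR. Day 20 (2) gave 0 with the pseudocount, edgeR and DESeq2 and 1 with no filter, the 3 scalings, and LE numbers 21 and 23 left out. Leaving out single libraries gave 1 to 5 on day 10, 4 to 6 on day 12, 5 to 6 on day 14, 5 to 7 on day 16, 1 to 3 on day 20 and 7 to 9 for the mean of days. For the difference of changes from day 12 to 14 (1), the pseudocount, RLE, TMM, edgeR and DESeq2 gave 2, no filter 0 and single libraries 0 to 2. From day 14 to 16 (0), the pseudocount, RLE and TMM gave 1, edgeR 2, DESeq2 3 and single libraries 0 to 1.

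In the conceptus, day 12 to 14 (3) gave 5 with DESeq2, 6 with no filter and 0 with limma, and single libraries 1 to 4. Day 14 to 16 (1) gave 0 with no filter, limma and edgeR on exon reads, and single libraries 0 to 3. CD3E, CD2 and PTPRC, the genes called at these steps in the main fit, did not pass the filter used with limma. Its counts of 0 are therefore no test of these genes. SKAP1, of the second list, reversed from day 12 to 14 with limma on RPKM (0.42 on the log2 scale, not past the threshold). Limma with no filter tests more genes. Apart from the limma counts in the conceptus, the cause of the other moves was not tested.

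Labels give no pairs of LE and GE. With neighbouring numbers as assumed pairs, deviations from the group means correlated between -0.065 and 0.194 over 20 pairs, and 6 were over 0.1. A replicate block of these pairs gave 2 for the difference of changes from day 12 to 14, and kept the other counts within 1.5 times. For conceptuses with the same number, 21 pairs correlated between -0.292 and 0.356, and the block left all 3 counts within 1.5 times. Genes near 0, such as CD3D and CD8A, rest on few reads, and the cause of their low values was not tested.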

Other observations

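Genes that draw lymphocytes into epithelium or keep them there formed a further list, of which 22 of 26 symbols were in the tables. Over the mean of the days, 6 of 14 tested were lower in LE than in GE and 2 were higher, close to the 42.6% lower and 12.7% higher of all genes, with a median of -0.25 against -0.37 for all genes. ITGAE, the integrin chain by which intraepithelial lymphocytes hold on to epithelial cadherin, was lower in LE (-1.63 ± 0.22 on the log2 scale, limma adjusted p = 1.21e-07). Its group means were 4.24 to 7.70 RPKM in GE and 0.94 to 1.89 in LE. S1PR1, a receptor for exit from tissue, was lower as well (-1.99 ± 0.28, adjusted p = 1.58e-07), as was the chemokine receptor CXCR3 (-1.06 ± 0.17, adjusted p = 1.59e-06).

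The cytokine IL18 and the chemokine CXCL16 were the genes higher in LE. IL18 on day 14 was at 5.32 to 36.5 RPKM in LE and at 0 to 0.14 in GE (3.59 ± 0.59 on the log2 scale, limma adjusted p = 8.35e-06). CXCL16 on day 20 was at 5.23 to 27.3 RPKM in LE and 2.67 to 4.25 in GE (1.98 ± 0.50, adjusted p = 0.00703), a call lost without LE numbers 21 and 23 (adjusted p = 0.185). IL15, a ligand of IL2RB, rose in LE from 0 to 0.71 RPKM on day 10 to 3.21 to 13.8 on day 20 (3.07 ± 0.71, adjusted p = 0.0159), a call lost in edgeR on recovered reads and without number 01 or 03 of day 10 or 21 or 23 of day 20 (adjusted p up to 0.0649). IL7, a survival factor of lymphocytes, was at 0 in 3 of 4 GE libraries of day 14 and at 4.66 to 8.06 RPKM on day 16 (1.95 ± 0.60, adjusted p = 0.029), a call lost in edgeR and DESeq2 on recovered reads, with no filter, and without any of numbers B03, B05, B07, 28, 30 and 32.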
